A study of Mus musculus with 12 samples.

Results

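The 10 genes described here are Krt7, Krt8, Krt18, Krt19, Epcam, Sox9, Cd24a, Afp, Gpc3 and H19, which mark bile duct epithelium, liver progenitor cells, fetal liver and liver tumors. They were taken by name from a table of 54532 genes, and each name matched 1 gene. Their RNA was counted in 12 mouse liver libraries in 4 groups of 3. All animals were male mice with floxed Pparg alleles (PPARγ flox/flox) that were injected at 8 weeks of age with an adeno-associated virus of serotype AAV8 and then fed a fast-food diet (FFD), rich in saturated fat, cholesterol and sucrose with fructose and glucose in the drinking water, for 2 or 5 months. PPARγ-KO mice received virus encoding Cre recombinase, and their wild-type (WT) littermates received virus encoding eGFP, so that the controls also carried floxed alleles and virus. Both transgenes were driven by the thyroxine-binding globulin (TBG) promoter, which is hepatocyte-specific, so bile duct and other non-hepatocyte cells were not meant to lose PPARγ. All 4 groups ate the FFD, and no chow-fed group was analysed here.

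Keratin 8 and keratin 18 pair into the intermediate filaments of simple epithelia and are the keratins of hepatocytes, whereas keratin 7 and keratin 19 are characteristic of the bile ducts. In chronic liver injury, ductular cells that carry Krt7, Krt19, Epcam, Sox9 and Cd24a can expand around the portal tracts, and Sox9 can also be switched on in hepatocytes. Afp, Gpc3 and H19 are abundant in fetal liver, are shut down after birth, and can come back in regeneration and in hepatocellular carcinoma. Because whole liver was sequenced, fewer cells of a type and less RNA per cell cannot be told apart in any of the values below.

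The libraries held 16367775 to 27452284 counts, mitochondrial genes took 4.702% to 6.437% of them, and 20072 to 21966 genes had at least 1 count. Hepatocyte markers were high in every library, with 10 genes summing to between 55800 and 88600 CPM (normalized read counts, scaled to library size with edgeR's TMM factors). The counts of Pparg did not fall in the libraries labelled PPARγ-KO. Pparg stood at 37.6 to 41.4 CPM in WT and 50.4 to 66.5 CPM in PPARγ-KO at 2 months, and at 36.9 to 41.4 CPM against 75 to 92.9 CPM at 5 months. Counts of the whole gene do not separate a transcript that lacks the floxed exons, so these values cannot check the deletion. The paper checked it at the protein level, and reported from Western blots that PPARγ was efficiently and lastingly lost in PPARγ-KO livers at each feeding time. The tables of both times differed in how they had been saved, since 27 gene names had turned into spreadsheet dates of the year 2022 in the 2-month tables and of 2023 in the 5-month tables. Feeding time and any difference in handling therefore cannot be told apart in comparisons over time. Age cannot be told apart from feeding time either, since all mice were injected at the same age and those fed longer were older. WT replicate 1 at 5 months had the lowest level of its group for 8 of the 10 genes, and WT replicate 2 at 2 months stood far above its group for H19. Results that rest on these libraries are given with and without them.

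Measured per gene length, Krt8 and Krt18 were far above the other members. Their median levels over the 12 libraries were 246.7 and 159.5 RPKM (the normalized read count divided by the gene length that the files give). The other 8 genes had median levels between 0.139 RPKM for Krt7 and 2.35 RPKM for Cd24a. In descending order these were Cd24a, H19 at 2.14 RPKM, Sox9 at 1.57 RPKM, Epcam at 1.54 RPKM, Afp at 1.17 RPKM, Krt19 at 0.742 RPKM, Gpc3 at 0.305 RPKM and Krt7. The ranges over libraries of neighbours in this order overlapped, Krt8 (128 to 367 RPKM) and Krt18 (90.2 to 268.1 RPKM) included, with the exception that Krt18 in every library was above all genes after it, of which H19 reached the highest level, 6.9 RPKM. Krt7 and Gpc3 rested on as few as 6 and 5 counts in a library, so that only large differences in them were detectable.

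Genotypes were compared within each time, and times within each genotype, over all genes with enough counts. The test was the quasi-likelihood F-test of edgeR, with p-values adjusted by Benjamini-Hochberg (BH) and a threshold of 0.05. At 2 months, 2 of the 9 members tested were lower in PPARγ-KO (Krt8 and Krt18) and none was higher, where 3.56% of all genes tested were called in either direction, 1.78% higher and 1.78% lower. At 5 months, 3 of 10 were called, with Krt8 and Krt18 lower and Sox9 higher, against 18.4% of all genes in either direction, 8.9% higher and 9.51% lower. From 2 to 5 months, 2 of 10 members rose in WT (Krt8 and Krt18) and none fell, where 46.4% of all genes were called, 23.8% higher and 22.7% lower. In PPARγ-KO livers 5 of 10 rose over time (Krt8, Krt18, Cd24a, Gpc3 and H19) and 1 fell (Afp), where 44.9% of all genes were called, 22.7% higher and 22.2% lower. The libraries of both groups did not overlap for 3 of 9 members tested at 2 months and 5 of 10 at 5 months, and over time for 3 of 10 in WT and 7 of 10 in PPARγ-KO. The same held for 24.1%, 34.9%, 56.8% and 55.6% of all genes tested in these comparisons. Against so high a background, the counts over time say little about these genes in particular. The members' median log2 fold changes were -0.52 and 0.24 for PPARγ-KO against WT at 2 and 5 months, where the median of all genes tested was -0.00483 and -0.00577. Over time the members' medians were 0.51 in WT and 0.84 in PPARγ-KO, beside -0.0128 and -0.0111 for all genes. The genotype and time comparisons share libraries, so they are given side by side.

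**Figure D1:**
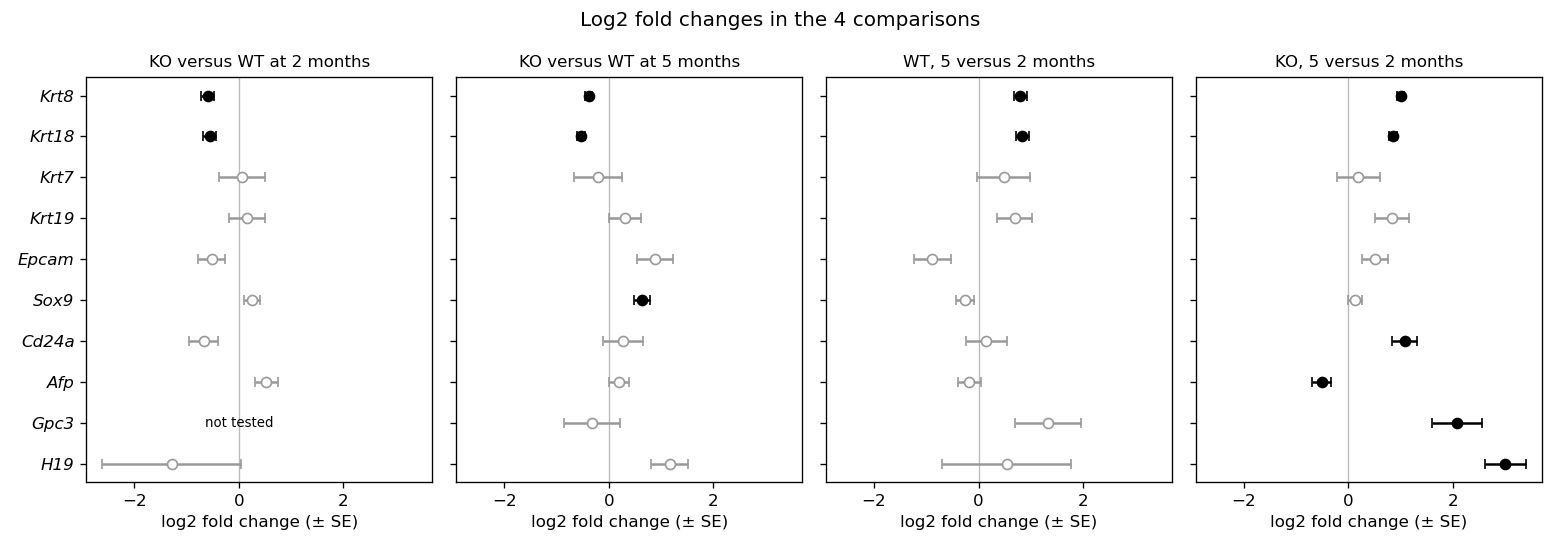
Log2 fold change (horizontal axis, with the standard error of the edgeR fit as bars) of each member in the 4 comparisons. Filled points passed the adjusted threshold of 0.05 and open points did not. Krt8 and Krt18 lie below 0 in both genotype comparisons and above 0 in both time comparisons, and Gpc3 was not tested at 2 months.

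Krt8 and Krt18 are encoded as a pair. In mm10 Krt8 lies on the minus strand of chromosome 15 at 101996698 to 102004482 and Krt18 on the plus strand at 102028180 to 102032027, with 23697 bases between them. The stretches just upstream of their transcripts are shown because both genes moved together in every comparison and because both carry AGGTCA, the half-site that nuclear receptors such as PPARγ with its partner RXR read as a repeat. They come from RefSeq promoter windows on GRCm38.p6, cut where an annotated transcript begins, and capitals mark AGGTCA or its reverse complement. The Krt8 stretch covers chr15:102004483-102004592 on the minus strand and the Krt18 stretch chr15:102027966-102028179 on the plus strand.
Krt8: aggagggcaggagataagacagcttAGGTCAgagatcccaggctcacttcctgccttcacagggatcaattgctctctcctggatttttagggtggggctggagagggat
Krt18: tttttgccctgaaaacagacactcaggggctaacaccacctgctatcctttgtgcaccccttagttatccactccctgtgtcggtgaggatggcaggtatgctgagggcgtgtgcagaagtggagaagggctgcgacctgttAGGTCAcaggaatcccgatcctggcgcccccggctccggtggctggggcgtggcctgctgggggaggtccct
The match begins 225 bases before the RefSeq start of Krt8 and 108 bases before that of Krt18. Of the 10 members, 6 had a promoter window of 300 bases in the RefSeq table (Krt7, Krt8, Krt18, Epcam, Afp and Gpc3), and AGGTCA on either strand was present in 3 of them, Krt7, Krt8 and Krt18. It was present in 16.3% of 32851 mouse promoter windows of the same length, so a single copy is common. Whether these copies are bound was not tested. The paper linked Krt8 and Krt18 to binding sites of both PPAR and HNF4α, with PPARα peaks standing in for PPARγ. It also listed both keratins as lower in PPARγ-KO at each time, among genes downstream of HNF4α. None of the 3 matches shared bases with a match of the other 7 motifs searched. Those were GTTAAT (in Afp, and in 7.1% of windows), TATAAA (in Krt8 and Afp, 13.6%), CCAAT (in Afp and Gpc3, 37.4%), GGGCGG (in Krt7, Epcam and Gpc3, 35.7%), TGGGAA (in Krt8, 25.6%), TGANTCA (in 0 members, 7.81%) and GGAATG (in 0 members, 14.7%).

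Krt8 was lower in every PPARγ-KO library than in any WT library of the same time. At 2 months it stood at 323, 440.5 and 450.1 CPM in WT and at 251, 288 and 265 CPM in PPARγ-KO. The log2 fold change was -0.60 (SE 0.126, edgeR BH-adjusted p = 0.0347). At 5 months the WT libraries held 718.5, 704 and 688.5 CPM and the PPARγ-KO libraries 516, 529 and 565 CPM. WT was thus tightly grouped at 704 ± 15 CPM (SD, n = 3) and PPARγ-KO at 537 ± 25.1 CPM, a log2 difference of -0.38 (SE 0.0682, edgeR BH-adjusted p = 0.00183). Krt8 rose over time in both genotypes, by 0.80 on the log2 scale in WT (SE 0.12, edgeR BH-adjusted p = 0.000367) and by 1.00 in PPARγ-KO (SE 0.0685, edgeR BH-adjusted p = 1.74e-06). After 5 months PPARγ-KO livers held more Krt8 RNA than WT livers had held at 2 months, and the libraries of these 2 groups did not overlap.

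Krt18 followed Krt8. WT libraries held 165, 222 and 223 CPM at 2 months and PPARγ-KO libraries 129.6, 152 and 134 CPM, without overlap. The log2 fold change was -0.56 (SE 0.121, edgeR BH-adjusted p = 0.0411). At 5 months the levels were 322, 385 and 382 CPM in WT and 264, 236 and 250 CPM in PPARγ-KO, where the mean was 249.9 ± 14.2 CPM (SD, n = 3). The log2 fold change was -0.53 (SE 0.0813, edgeR BH-adjusted p = 0.000633). Over time Krt18 rose by 0.84 on the log2 scale in WT (SE 0.125, edgeR BH-adjusted p = 0.000419) and by 0.85 in PPARγ-KO (SE 0.0726, edgeR BH-adjusted p = 6.97e-06). At 2 months, leaving out WT replicate 1 kept both keratins past the threshold, and leaving out any other library lost both calls, with edgeR BH-adjusted p values of up to 0.15 for Krt8 and 0.17 for Krt18. At 5 months and over time both calls remained with each library left out. Krt18 at 2 months also missed the threshold without TMM scaling (edgeR BH-adjusted p = 0.0546).

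The ratio of the keratin partners stayed in a narrow range across all levels of both genes. The Krt8 level was 1.47 ± 0.115 times the Krt18 level in RPKM over the 12 libraries (SD), with a lowest ratio of 1.32 and a highest of 1.66. By group the ratio was 1.46 ± 0.0219 in WT and 1.42 ± 0.0329 in PPARγ-KO at 2 months, and 1.43 ± 0.176 and 1.58 ± 0.127 at 5 months (SD, n = 3 each). WT replicate 1 at 5 months had a ratio of 1.64 beside 1.34 and 1.32 in its group, and PPARγ-KO replicate 1 at 5 months had 1.43 beside 1.65 and 1.66. A few reads of Krt8 may be misplaced, since the processed pseudogene Krt8-ps had 199 counts over all libraries beside 107995 for Krt8.

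**Figure D2:**
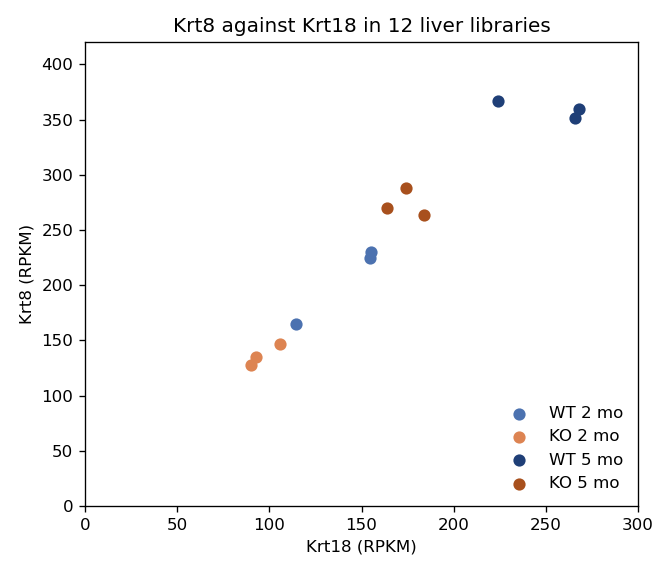
Level of Krt8 (vertical axis) against Krt18 (horizontal axis), both in RPKM, with 1 point per library and a color per group. The points run from PPARγ-KO at 2 months (Krt8 128 to 147 RPKM) to WT at 5 months (352 to 367 RPKM), with PPARγ-KO at 5 months below WT at 5 months.

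The other intermediate filament genes and filament partners did not all move with this pair. Of 13 listed, 11 were tested at 2 months and none was called (median log2 fold change -0.0784), where 3.56% of all genes were called. At 5 months 1 of 12 was called, beside 18.4% of all genes. The called filament gene was Vim, the vimentin gene of mesenchymal cells, which fell by 0.84 on the log2 scale in PPARγ-KO (edgeR BH-adjusted p = 0.000912). Over time 3 of 12 rose and 3 fell in WT, and 2 of 10 rose and 2 fell in PPARγ-KO. The shares of all genes called were 46.4% and 44.9%. Lmna, which encodes lamin A and C of the nuclear envelope, rose by 0.54 and 0.58 on the log2 scale (edgeR BH-adjusted p = 0.00105 and 6.98e-05). Sqstm1, the p62 protein that gathers with keratin 8 and keratin 18 in Mallory-Denk bodies, rose by 0.64 and 0.43 (edgeR BH-adjusted p = 0.000141 and 0.000259). Plec, the linker plectin, fell by 0.55 and 0.64 (edgeR BH-adjusted p = 0.000244 and 8.48e-05).

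Krt7 and Krt19, the duct keratins, were sparse and were not called in any comparison. Krt7 lies on chromosome 15 at 101411043 to 101430313 (plus strand) and Krt19 on chromosome 11 at 100140810 to 100148665 (minus strand). Krt7 had 15, 22 and 15 counts in WT and 18, 7 and 38 in PPARγ-KO at 2 months. After 5 months the counts were 6, 27 and 35 in WT beside 21, 19 and 21 in PPARγ-KO. Its groups overlapped throughout, and its log2 fold changes between genotypes were 0.06 (SE 0.444) and -0.21 (SE 0.461), so that a change of the size seen in Krt8 would not have been detectable. Krt19 had 18, 26 and 16 counts in WT and 16, 21 and 38 in PPARγ-KO at 2 months. After 5 months it had 20, 34 and 36 beside 31, 41 and 43. The genotypes overlapped at both times, with log2 fold changes of 0.15 (SE 0.344, edgeR BH-adjusted p = 0.867) and 0.30 (SE 0.307, edgeR BH-adjusted p = 0.558). Over time the PPARγ-KO libraries did not overlap, at 0.828, 1.2 and 1.41 CPM against 1.46, 2.1 and 2.71 CPM, but the log2 difference of 0.83 (SE 0.319) missed the threshold (edgeR BH-adjusted p = 0.0526). It passed in 6 of 13 alternative fits. Among them were those without 2-month replicate 3 (1.03, edgeR BH-adjusted p = 0.0482) and without 5-month replicate 1 (1.05, edgeR BH-adjusted p = 0.028). In WT the log2 difference over time was 0.69 (SE 0.337, edgeR BH-adjusted p = 0.117).

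**Figure D3:**
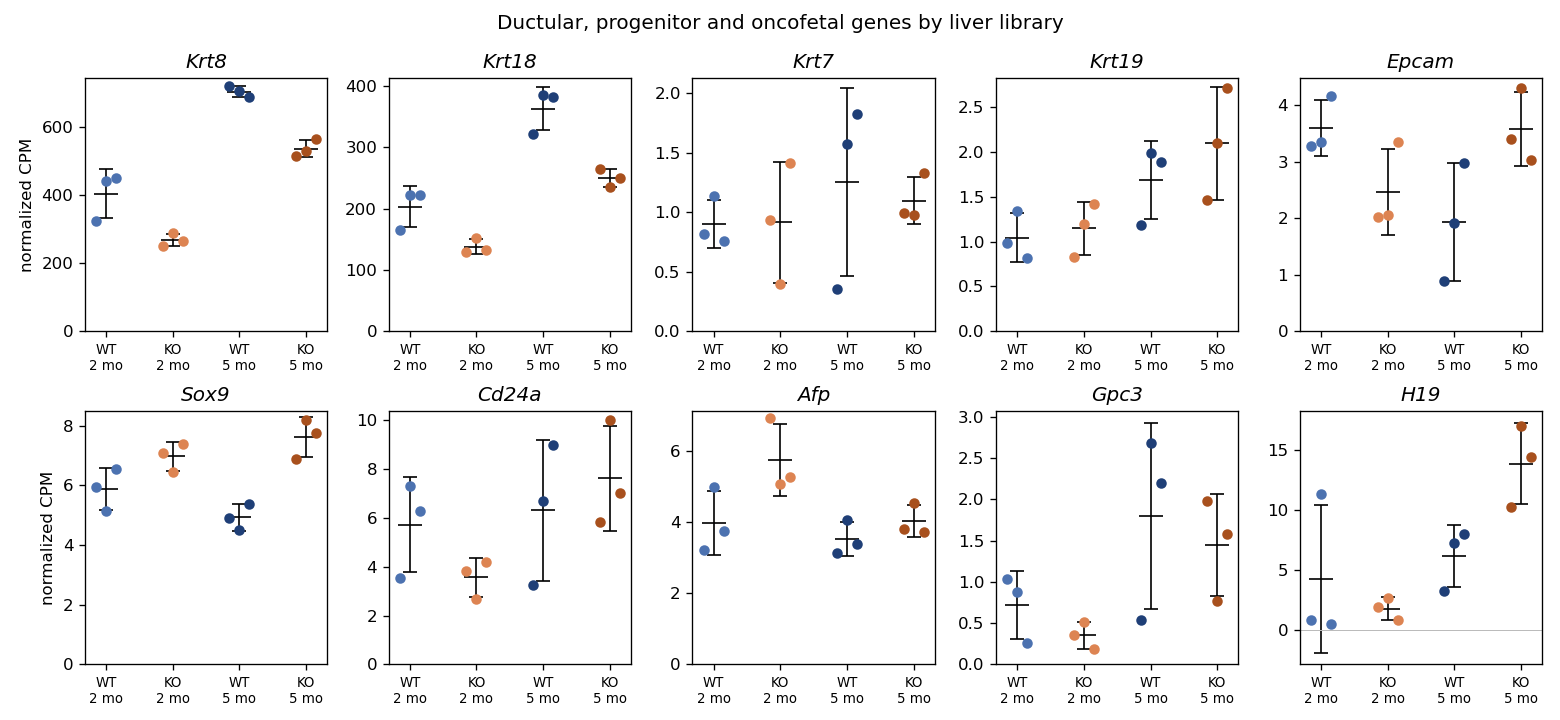
Normalized CPM (vertical axes, 1 panel per gene) of the 10 members in each library, with the mean and SD of each group of 3 as a bar and whiskers. Krt8 and Krt18 separate the genotypes at each time, Afp at 2 months, and Sox9, Epcam and H19 at 5 months. The differences of Afp, Epcam and H19 did not pass the adjusted threshold. For H19, 1 of the 3 WT libraries at 2 months lies at 11.4 CPM while the others lie at 0.873 and 0.558 CPM.

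Sox9, the transcription factor of bile duct and progenitor cells, was the only member called higher in PPARγ-KO than in WT. It lies on chromosome 11 at 112782224 to 112787760 (plus strand). At 5 months WT libraries held 4.92, 4.49 and 5.38 CPM and PPARγ-KO libraries 6.89, 8.2 and 7.76 CPM. The groups did not overlap, and the log2 fold change was 0.63 (SE 0.15, edgeR BH-adjusted p = 0.0102). Without WT replicate 2 the log2 fold change was 0.57 and no longer passed (edgeR BH-adjusted p = 0.0556). At 2 months the libraries overlapped, with 5.95, 5.15 and 6.54 CPM in WT and 7.09, 6.44 and 7.37 CPM in PPARγ-KO, and the log2 fold change was 0.25 (SE 0.157, edgeR BH-adjusted p = 0.447). Sox9 did not pass the threshold over time in either genotype, at -0.25 in WT and 0.12 in PPARγ-KO on the log2 scale (edgeR BH-adjusted p = 0.256 and 0.492).

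Epcam, the epithelial adhesion molecule that marks ducts and progenitor cells and is absent from mature hepatocytes, was not called in any comparison. It lies on chromosome 17 at 87635979 to 87651106 (plus strand). At 2 months it stood at 3.27, 3.35 and 4.16 CPM in WT and at 2.02, 2.05 and 3.35 CPM in PPARγ-KO. At 5 months it stood at 0.888, 1.92 and 2.97 CPM in WT and at 3.4, 4.3 and 3.03 CPM in PPARγ-KO. All PPARγ-KO libraries were thus above WT at 5 months, but the log2 fold change of 0.89 (SE 0.34) did not pass the threshold (edgeR BH-adjusted p = 0.0978), and neither did the one of -0.52 at 2 months (SE 0.252, edgeR BH-adjusted p = 0.303). In WT all 5-month libraries lay below all 2-month libraries, with a log2 difference of -0.88 (SE 0.353, edgeR BH-adjusted p = 0.0628). In PPARγ-KO the log2 difference over time was 0.51 (SE 0.25, edgeR BH-adjusted p = 0.118). The 5-month WT mean held WT replicate 1, which had 15 counts of Epcam beside 33 and 57 in its group. Without it the genotypes at 5 months differed by 0.55 on the log2 scale (edgeR BH-adjusted p = 0.162), and without WT replicate 3, the highest, by 1.36, which passed (edgeR BH-adjusted p = 0.0231). The time differences also turned on single libraries and on the processing. Of 13 alternative fits each, 5 called the WT difference and 1 the PPARγ-KO difference. The WT one passed without 5-month replicate 3 (-1.34, edgeR BH-adjusted p = 0.016), and the PPARγ-KO one passed without 2-month replicate 3 (0.81, edgeR BH-adjusted p = 0.0254).

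Cd24a, a mucin-like surface protein of ductular and progenitor cells that blood cells also carry, rose over time in PPARγ-KO livers. It lies on chromosome 10 at 43578284 to 43584265 (plus strand). PPARγ-KO libraries held 3.83, 2.68 and 4.2 CPM at 2 months and 5.85, 9.99 and 7 CPM at 5 months, without overlap. The log2 difference was 1.07 (SE 0.233, edgeR BH-adjusted p = 0.00349). WT libraries spread widely at both times, with 3.55, 7.31 and 6.29 CPM at 2 months and 3.26, 6.7 and 8.98 CPM at 5 months, and their log2 difference of 0.15 (SE 0.397) did not pass (edgeR BH-adjusted p = 0.786). Between genotypes Cd24a had log2 fold changes of -0.67 at 2 months (SE 0.28, edgeR BH-adjusted p = 0.233) and 0.27 at 5 months (SE 0.384, edgeR BH-adjusted p = 0.698). At 2 months it passed in 2 of 13 alternative fits, among them the one without WT replicate 1, at -0.91 (edgeR BH-adjusted p = 0.0218).

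Of the other genes of the bile duct epithelium, 0 of 18 tested were called between genotypes at 2 months and 2 of 18 at 5 months, where 3.56% and 18.4% of all genes were called. The list held 22 genes, with a median log2 fold change of -0.216 in those tested at 2 months. At 5 months 1 of 18 rose and 1 fell in PPARγ-KO, with a median of 0.149. Pkhd1, the fibrocystin gene, rose by 0.39 on the log2 scale (edgeR BH-adjusted p = 0.0245) and Cldn3, a tight junction claudin, fell by 0.24 (edgeR BH-adjusted p = 0.0285). Over time 1 of 18 rose and 2 fell in WT, and 2 of 19 rose and 3 fell in PPARγ-KO. The shares of all genes called were 46.4% and 44.9%. Tspan8, a tetraspanin of epithelia, rose by 1.18 on the log2 scale in WT and by 2.16 in PPARγ-KO (edgeR BH-adjusted p = 0.00379 and 9.22e-05). Spp1, the osteopontin gene that ductular cells and macrophages share, rose by 1.62 in PPARγ-KO (edgeR BH-adjusted p = 2.9e-05). Onecut1, the HNF6 factor of hepatocytes and ducts, fell by 1.78 in WT and fell by 2.52 in PPARγ-KO (edgeR BH-adjusted p = 0.0113 and 0.0128). The 22 genes summed to 385 to 467 CPM in WT and 354 to 373 CPM in PPARγ-KO at 2 months, and to 396 to 544 CPM against 463 to 506 CPM at 5 months, where the lowest WT value belonged to replicate 1.

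Notch, Hippo-YAP and TWEAK signals guide the fate of duct cells. Calls among their genes went in both directions, as did those among all genes. Of 17 listed genes, 1 was called at 2 months, where 3.56% of all genes were called. Tead1, a DNA-binding partner of YAP, fell by 0.63 on the log2 scale in PPARγ-KO (edgeR BH-adjusted p = 0.0189). At 5 months 3 of 16 rose and 3 fell (median log2 fold change -0.0948), where 8.9% of all genes rose and 9.51% fell. Notch1, a Notch receptor, rose by 0.68 and Hes1, a Notch target, rose by 0.46 (edgeR BH-adjusted p = 0.000633 and 0.0114). Tnfrsf12a, the TWEAK receptor, fell by 0.66 and Axl, a receptor tyrosine kinase and YAP target, fell by 0.59 (edgeR BH-adjusted p = 0.000235 and 0.00142). Notch1 was also the 1 gene of the list whose genotype difference itself differed between the times, by 0.93 on the log2 scale (edgeR BH-adjusted p = 0.016). Over time 3 of 17 rose and 6 fell in WT, and 4 of 16 rose and 4 fell in PPARγ-KO. The shares of all genes called were 46.4% and 44.9%. Tnfrsf12a rose by 1.64 in WT and by 1.96 in PPARγ-KO (edgeR BH-adjusted p = 0.000302 and 1.79e-05).

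Afp encodes alpha-fetoprotein, the albumin-like serum protein of the fetal liver, and lies on chromosome 5 at 90490737 to 90508907 (plus strand), 14134 bases after Alb. At 2 months it stood at 3.22, 4.99 and 3.75 CPM in WT and at 6.93, 5.07 and 5.28 CPM in PPARγ-KO. All PPARγ-KO libraries were above all WT libraries (the nearest pair stood at 5.07 and 4.99 CPM), and the log2 fold change of 0.53 (SE 0.216) did not pass the threshold (edgeR BH-adjusted p = 0.22). At 5 months the libraries overlapped, at 3.14, 4.08 and 3.39 CPM in WT and 3.82, 4.56 and 3.72 CPM in PPARγ-KO, and the log2 fold change was 0.20 (SE 0.192, edgeR BH-adjusted p = 0.528). Over time Afp fell by 0.51 on the log2 scale in PPARγ-KO (SE 0.183, edgeR BH-adjusted p = 0.0397), where WT had a log2 difference of -0.17 (SE 0.225, edgeR BH-adjusted p = 0.55). The call in PPARγ-KO was lost without 2-month replicate 1 (-0.36, edgeR BH-adjusted p = 0.163), without 5-month replicate 1 (-0.46, edgeR BH-adjusted p = 0.114) or 5-month replicate 3 (-0.46, edgeR BH-adjusted p = 0.117), and in DESeq2 (BH-adjusted p = 0.0614). An antisense gene, Gm43449, overlaps Afp and had 189 counts over all libraries beside 1012 for Afp, and without knowledge of the strand their reads cannot be told apart.

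Afp is held down after birth by repressors, and its neighbours in the albumin family are controlled by the hepatocyte factors. Of 11 listed regulators of Afp, H19 and Gpc3, 1 rose and none fell in PPARγ-KO at 2 months, and 3 rose and none fell at 5 months. The shares of all genes called were 3.56% and 18.4%. Zbtb20, which represses Afp in adult liver, rose by 0.35 on the log2 scale at 5 months (edgeR BH-adjusted p = 0.00437). Hnf4a, a master factor of hepatocytes, rose by 0.28 (edgeR BH-adjusted p = 0.0151), and Foxa3, a pioneer factor, rose by 0.52 at 2 months and by 0.26 at 5 months (edgeR BH-adjusted p = 0.018 and 0.0225). Zhx2, a repressor of Afp, H19 and Gpc3, was not called in any comparison, with log2 fold changes between genotypes of 0.08 and 0.05. It is named here after its values were seen. Over time 1 regulator rose and 2 fell in WT, and 1 rose and 3 fell in PPARγ-KO, beside 46.4% and 44.9% of all genes called. In the albumin family of 4 genes, Afp included, none was called at 2 months. Alb rose by 0.64 on the log2 scale in PPARγ-KO at 5 months (edgeR BH-adjusted p = 0.00121) as the 1 call there. Over time Gc, the vitamin D-binding protein gene, rose in both genotypes (0.38 and 0.31, edgeR BH-adjusted p = 0.0102 and 0.00343), and Afm, afamin, fell by 0.49 in PPARγ-KO beside Afp (edgeR BH-adjusted p = 5.48e-05).

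Gpc3, glypican 3, is a cell-surface proteoglycan of fetal liver and liver tumors that mesothelial cells also express. It lies on chromosome X at 52272426 to 52613950 (minus strand). It had 19, 17 and 5 counts in WT and 7, 9 and 5 in PPARγ-KO at 2 months, too few for the test. After 5 months the counts were 9, 46 and 42 in WT beside 42, 15 and 25 in PPARγ-KO. The genotypes overlapped at 5 months, and the log2 fold change was -0.32 (SE 0.535, edgeR BH-adjusted p = 0.748). Over time PPARγ-KO libraries went from 0.362, 0.513 and 0.186 CPM to 1.98, 0.769 and 1.58 CPM without overlap. The log2 difference was 2.08 (SE 0.482, edgeR BH-adjusted p = 0.00473), and it passed with each library left out. In WT the log2 difference was 1.33 (SE 0.626) and did not pass (edgeR BH-adjusted p = 0.114), and without WT replicate 1 at 5 months it was 1.76 and passed (edgeR BH-adjusted p = 0.0164).

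H19, an imprinted long noncoding RNA of 2460 bases in the files' gene models, ranged from 11 to 331 counts between libraries. It lies on chromosome 7 at 142575529 to 142578143 (minus strand) and is the host of the microRNA miR-675, whose mature forms are shown here because they are cut from the same transcript. Capitals mark the seed, bases 2 to 8, and the sequences are from RefSeq on GRCm38.p6.
mmu-miR-675-5p (chr7:142577112-142577133, minus strand): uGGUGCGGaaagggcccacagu
mmu-miR-675-3p (chr7:142577078-142577099, minus strand): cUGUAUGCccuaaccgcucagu
The seeds differ, and the gene row of Mir675 had 0 counts over all libraries, so only the host RNA was measured. At 5 months WT libraries held 3.26, 7.29 and 7.99 CPM of H19 and PPARγ-KO libraries 10.2, 17 and 14.4 CPM. Every PPARγ-KO library was above every WT library, but the log2 fold change of 1.16 (SE 0.357) did not pass the threshold (edgeR BH-adjusted p = 0.0807). Without WT replicate 1, the lowest of its group, the log2 fold change was 0.86 and passed (edgeR BH-adjusted p = 0.0214), and it also passed in DESeq2 (1.18, BH-adjusted p = 0.0395) and without the filter on low counts (1.16, edgeR BH-adjusted p = 0.0471). In 1 fit of all 12 libraries it was 1.16 and far from the threshold (edgeR BH-adjusted p = 0.471), and without any 1 of the other 5 libraries of this comparison the adjusted p was 0.0556 to 0.188.

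At 2 months H19 stood at 0.873, 11.4 and 0.558 CPM in WT and at 1.92, 2.68 and 0.819 CPM in PPARγ-KO. A single WT library, replicate 2, with 221 counts beside 16 and 11, set the WT mean. With it the log2 fold change was -1.28 (SE 1.33, edgeR BH-adjusted p = 0.677), and without it 1.30 (edgeR BH-adjusted p = 0.375). Over time H19 rose in PPARγ-KO by 3.00 on the log2 scale (SE 0.399, edgeR BH-adjusted p = 0.00137), which is 8.00-fold, from a mean of 1.8 ± 0.935 CPM to 13.9 ± 3.39 CPM (SD, n = 3), and this passed with each library left out. In WT the log2 difference over time was 0.53 (SE 1.23, edgeR BH-adjusted p = 0.758) with replicate 2 at 2 months and 3.11 (edgeR BH-adjusted p = 0.00116) without it.

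**Figure D4:**
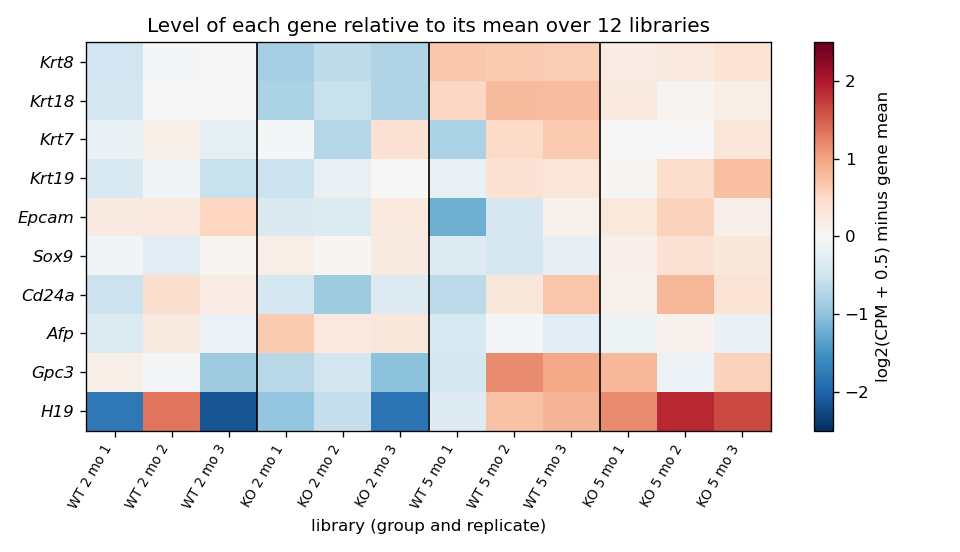
Level of each member in each library, as log2(CPM + 0.5) minus the gene's mean over the 12 libraries (red above, blue below), with black lines between groups. The Krt8 and Krt18 rows share their pattern, H19 is high in all PPARγ-KO libraries at 5 months and in WT replicate 2 at 2 months, and WT replicate 1 at 5 months is the lowest of its group for Krt7, Krt18, Krt19, Epcam, Cd24a, Afp, Gpc3 and H19.

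Most of the other fetal and imprinted genes had few counts or were not called. Igf2, the imprinted neighbour of H19, had 7 counts over all libraries, and Lin28b had 0 in every library. Of 17 listed genes, 9 had enough counts at 2 months, of which 1 fell in PPARγ-KO and none rose. At 5 months 10 had enough, of which 2 fell and none rose. The shares of all genes called were 3.56% and 18.4%. Lpl, lipoprotein lipase, which is expressed in fetal liver and is a PPARγ target, fell by 0.66 on the log2 scale at 2 months and by 1.34 at 5 months (edgeR BH-adjusted p = 0.0415 and 0.00682). Mest, an imprinted gene, fell by 0.68 at 5 months (edgeR BH-adjusted p = 0.0119). Over time 2 of 9 rose and 2 fell in WT, and 3 of 9 rose and 2 fell in PPARγ-KO, beside 46.4% and 44.9% of all genes called. Lpl, lower in PPARγ-KO than in WT at each time, rose over time by 1.83 on the log2 scale in WT and by 1.14 in PPARγ-KO (edgeR BH-adjusted p = 0.000156 and 0.000733). Scd2, a stearoyl-CoA desaturase, rose by 1.76 in PPARγ-KO (edgeR BH-adjusted p = 0.00827). Igf2bp2, an RNA-binding protein of fetal tissue, rose by 0.99 in WT and by 0.81 in PPARγ-KO on the log2 scale (edgeR BH-adjusted p = 0.0131 and 0.000949), and Peg3, a paternally expressed zinc finger gene, fell by 1.54 and 0.98 (edgeR BH-adjusted p = 9.95e-05 and 0.00186).

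The change of the genotype difference from 2 to 5 months was tested in 1 fit of all 12 libraries. edgeR called none of the 10 members, 1 had an unadjusted p under 0.05, and DESeq2 called 0, where 1.57% of all genes were called. Epcam had the smallest p, with a difference of 1.40 on the log2 scale (SE 0.455, unadjusted p = 0.00756, edgeR BH-adjusted p = 0.145). H19 had a difference of 2.46 (SE 1.37, edgeR BH-adjusted p = 0.456), which was -0.12 without WT replicate 2 at 2 months. For Krt8 and Krt18 the differences were 0.20 (SE 0.146) and 0.02 (SE 0.155), and for Sox9 0.38 (SE 0.209). A genotype difference that passed at 5 months and not at 2 months, as for Sox9, is therefore not shown to differ between the times.

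For the 7 members called in at least 1 comparison, the genes with the most similar log2 CPM over the 12 libraries were looked up among genes with a mean of at least 1 CPM. These are descriptions, since libraries of a group share genotype and time. Krt8 was most like Gpx4, Rad51b and Fez2 (Pearson r of 0.987 to 0.989) and Krt18 most like Fkbp1a, Anxa4 and Lgals3 (0.982 to 0.986). Sox9 was most like Ap5s1, Insig1 and Irf2bpl (0.93 to 0.933), and Cd24a most like Ctps2, Cystm1 and Spef1 (0.904 to 0.916). Afp was most like Mllt11, Sirt6 and Lrrk1 (0.863 to 0.882), and H19 most like Usp15, Hist1h2bg and Ephb2 (0.884 to 0.907). Gpc3 was most like Mib2, Aph1c and Upk3b (0.873 to 0.875), of which Upk3b is a mesothelial marker.

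Markers of other cells also changed in these comparisons, and their part in the results was not tested. Of all genes tested, 1.78% were called higher and 1.78% lower in PPARγ-KO at 2 months, and 8.9% and 9.51% at 5 months. Over time 23.8% were called higher and 22.7% lower in WT, and 22.7% and 22.2% in PPARγ-KO. At 5 months, when Krt8 and Krt18 were lower in PPARγ-KO, 8 of 8 macrophage markers were also lower, with sums of 514 to 632 CPM in PPARγ-KO against 1070 to 1180 CPM in WT. At 2 months 1 of 8 was higher and 1 lower (449 to 502 CPM against 409 to 532 CPM). Over time, as both keratins rose, 6 of 8 macrophage markers were higher in WT (median log2 difference 1.01) and none lower, while 3 of 8 were higher and 2 lower in PPARγ-KO (median -0.0309). Stellate cell and fibroblast markers were called lower for 1 of 9 at 2 months and 4 of 9 at 5 months. Their sums did not overlap at either time. They were 468 to 480 CPM in PPARγ-KO against 623 to 771 CPM in WT at 2 months, and 554 to 621 CPM against 702 to 847 CPM at 5 months. Endothelial markers were lower for 3 of 7 at 5 months, with sums of 236 to 255 CPM in PPARγ-KO and 273 to 280 CPM in WT, and none was called at 2 months. Hepatocyte markers were higher for 1 of 10 at 2 months and 2 of 10 at 5 months, and none was called lower. They summed to 75000 to 88600 CPM in PPARγ-KO against 57300 to 71700 CPM in WT at 2 months. At 5 months the sums were 73800 to 85200 CPM against 55800 to 59500 CPM. Alb held the largest part of these sums, with means of 57700 and 44900 CPM at 2 months and 57100 and 36900 CPM at 5 months.

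Beside the rise of Gpc3 over time, mesothelial markers were called higher for 2 of 3 in WT and 2 of 4 in PPARγ-KO. Among them was Upk3b in both (log2 differences of 2.11 and 2.69). Of all genes, 23.8% in WT and 22.7% in PPARγ-KO were called higher over time. The 7 mesothelial markers, none at 0 in any group, summed to 3.96 to 4.99 CPM in WT and 3.78 to 4.09 CPM in PPARγ-KO at 2 months, and to 5.86 to 14.2 CPM and 6.46 to 16 CPM at 5 months. WT replicate 1 at 5 months had the 5.86 CPM and also the lowest Gpc3 of its group. None of the mesothelial markers was called between genotypes. Beside the rise of Cd24a in PPARγ-KO, 2 of 5 erythroid markers were higher and 1 lower. Of neutrophil markers 2 of 3 were higher and 1 lower, where 22.7% of all genes were called higher and 22.2% lower. Erythroid markers summed to 244 to 342 CPM at 2 months and 339 to 633 CPM at 5 months in PPARγ-KO, and neutrophil markers to 5.07 to 6.1 CPM and 4.86 to 7.27 CPM. B cell markers were lower for 2 of 4 there and for 2 of 3 between genotypes at 5 months, and summed to at most 6.9 CPM in any library. T and NK cell markers were called higher for 3 of 5 in WT over time and in no other comparison. Of 7 pancreatic acinar markers, 3 or 4 were at 0 in each group and only Cela1 was tested, which was lower in PPARγ-KO at 5 months and higher in WT over time.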

How the data were processed

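Liver RNA was extracted with TRIzol and sequenced by Novogene on an Illumina NovaSeq. The authors deposited raw counts of reads per gene for each library. The methods name STAR and the submitters' processing notes name HISAT2 as the aligner, both with mm10. The counting program, annotation release and strand setting are not given in the sources used here. Genes were matched by name to identifiers, and tests were made by identifier.

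Groups were taken from the sample titles, with 3 libraries each. The titles number the libraries as repeats and do not tie them to mice, so that p-values measure the spread between libraries. Low counts were removed by filterByExpr, and libraries were scaled by TMM. Genes were tested with the robust quasi-likelihood F-test of edgeR 4.0.16 in R 4.3.3 (two-sided, Benjamini-Hochberg over all genes tested, threshold 0.05), each comparison in its own fit of 6 libraries and the change of the genotype difference in a fit of 12. Libraries held 16367775 to 27452284 counts, at which the sparse genes (Krt7, Krt19 and Gpc3) had few counts and wide standard errors. The script was tested on simulated data.

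Same-numbered libraries of the 2 genotypes correlated at 0.22, 0.324 and 0.14 at 2 months on 5000 genes after removal of group means, and at -0.0779, -0.0603 and -0.179 at 5 months. Differently numbered libraries correlated at -0.274 to 0.114 at 2 months and at -0.0518 to 0.148 at 5 months. By these values only the 2-month numbers look paired, which the labels do not say. The tests reported above did not use this pairing at either time. A fit with a replicate block was run as an alternative in every comparison. At 2 months it changed no call of a member, while the calls over all genes went from 519 to 817.

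Alternatives were DESeq2 1.42.0, other scalings and filters, other thresholds, a replicate block, 1 fit of all libraries, and each library left out in turn. All 10 members are named, Pparg as the targeted gene, at most the 4 called genes with the smallest p of a list and comparison, and the 3 most similar genes of each called member. The lists covered bile duct, Notch, YAP and TWEAK, fetal and imprinted, regulator, albumin family and intermediate filament genes and markers of 10 cell types. Members and lists were chosen with earlier results of these data known. RefSeq sequences were matched by symbol. The values of 1 listed regulator are not reported here.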

Additional observations from a re-analysis of the deposited data

Results flagged for a closer look

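The genotype difference of Pparg itself differed between the times. In libraries labelled PPARγ-KO it was above WT by 0.52 on the log2 scale at 2 months and by 1.15 at 5 months, and the change of 0.62 (SE 0.145) passed edgeR's test of the difference over all 12 libraries (adjusted p = 0.0432). It no longer passed with any of 9 of the 12 libraries left out, with adjusted p values up to 0.122. No value of the 10 members was set apart in this way.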

How the results depend on the processing

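The number of members called in PPARγ-KO against WT at 2 months was 2 by edgeR, 1 (Krt8) without TMM scaling, 4 at an unadjusted p under 0.05, and 0 to 3 with 1 library left out. It was 3 without WT replicate 1, which added Cd24a, and 0 without any 1 of the other libraries. The calls over all genes moved the same way, from 519 to 1577 without WT replicate 1 and to 117 to 238 without any 1 of the others. At 5 months it was 3, and 5 without the filter, at an unadjusted p under 0.05 or at an adjusted p under 0.1, and 2 to 4 with 1 library left out. The lowest came without WT replicate 2, where calls over all genes went from 2602 to 1601. Without the filter all-gene calls were 1562 at 2 months and 3015 at 5 months. In WT over time it was 2, and 4 without the filter, which added Epcam and Gpc3, and 2 to 3 with 1 library left out. In PPARγ-KO over time it was 6, with 5 to 8. For the change of the genotype difference it was 0, and 1 (Epcam) without the filter or at an unadjusted p under 0.05, and 0 with each library left out. DESeq2 called 2, 4, 3, 5 and 0 in the same order.

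With the replicate block the counts were 2, 4, 3, 6 and 0. The block added H19 at 5 months (adjusted p = 0.000331), Epcam in WT over time (0.0238) and Krt19 in PPARγ-KO over time (0.034) and dropped Afp there (0.0631), in comparisons where the numbers do not pair the libraries. Over time the same-number correlations were 0.238, 0.185 and 0.0191 in WT and -0.0376, 0.218 and -0.0199 in PPARγ-KO.

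The log2 fold changes that changed sign under an alternative were not past the threshold with all libraries. Krt7 at 2 months was -0.0238 without TMM scaling and -0.0166 with the block. With 1 library left out, the ranges that crossed 0 at 2 months were -0.422 to 0.389 for Krt7, -0.0464 to 0.366 for Krt19 and -1.81 to 1.3 for H19. At 5 months they were -0.637 to 0.179 for Krt7, -0.037 to 0.621 for Cd24a and -0.738 to 0.0696 for Gpc3. In WT over time they were -0.193 to 0.465 for Cd24a and -0.303 to 0.018 for Afp, and in PPARγ-KO over time -0.131 to 0.685 for Krt7. For the change of the genotype difference they were -0.0628 to 0.151 for Krt18, -0.0734 to 0.361 for Krt19, -0.118 to 2.99 for H19 and -0.708 to 0.21 for Krt7. Without TMM scaling the median log2 fold change of all genes was -0.0929 in WT over time, beside -0.0128 with it, and the shift was smaller in the other comparisons. The causes were not tested. Gpc3, untested at 2 months, had a log2 fold change of -1.05 without the filter (adjusted p = 0.414).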
